A study of Mus musculus with 6 samples.

Results

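The genes described here are 38 core protein components of the spliceosome's small nuclear ribonucleoproteins (snRNPs). They were chosen by name, and all 38 were found among the 55414 genes measured and passed the filter on low counts, which left 23003 genes. They comprise the 7 Sm ring proteins, the 7 nuclear Lsm ring proteins, 3 proteins specific to U1, 2 specific to U2, 3 subunits of SF3A, 5 of SF3B, both U2AF subunits, 3 proteins of the U4/U6 particle, 5 of U5 and Prpf19. Polyadenylated RNA was measured in mouse CD8+ T cells of OT-I genotype from spleen and lymph nodes, in 3 groups of 2 libraries. The N4 group held cells taken on day 4 after stimulation with the N4 peptide, and the T4 group cells taken on day 4 after the T4 peptide, each given with antibodies against the costimulatory receptors OX40 and 4-1BB. The naive group held unstimulated cells. N4 is the ovalbumin fragment that the OT-I receptor recognises, and T4 is an altered form that stimulates it less strongly. All 3 groups carry the same receptor transgene, so every response described is that of 1 receptor specificity. The labels do not say whether the libraries of a group came from separate mice, so p-values measure the spread between these libraries only.

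The spliceosome removes introns from pre-messenger RNA and assembles anew on each intron from U1, U2, U4, U5 and U6 snRNPs. Each of the U1, U2, U4 and U5 RNAs is clasped by a ring of Sm proteins, and U6 RNA carries a ring of Lsm proteins at its end. U1 recognises the upstream splice site, U2AF and U2 with its SF3A and SF3B parts recognise the branch point and the downstream splice site, and the U4/U6.U5 tri-snRNP brings the parts that form the catalytic centre. Activated T cells grow and divide and raise the output of much of their RNA and protein machinery. The snRNAs themselves are not polyadenylated and are not described here, only the messages of their proteins.

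The libraries held 269033066 to 335968843 estimated counts. Levels are given in CPM, counts scaled by library total and by the TMM factor, which ranged from 0.6412 to 1.36. The CD8 T cell markers (8 genes such as Cd3e and Cd8a) were present in every library, with a summed level of 4876.8 and 6274.3 CPM in N4 cells, 3928.3 and 4218.3 CPM in T4 cells, and 5695.5 and 7429.5 CPM in naive cells. Markers of other cells differed between groups. The 12 macrophage and monocyte markers summed to 17.3 to 21.2 CPM in N4 cells, 259.1 to 272.7 CPM in T4 cells and 2237.8 to 2679 CPM in naive cells, with Adgre1 at 0 in both N4 libraries. The 8 neutrophil markers summed to 39.4 to 47.6 CPM in N4 and 4.04 to 10.8 CPM in T4, but to 2442.8 and 25322.4 CPM in the naive libraries, so naive library 2 stood apart; Ltf was at 0 in both N4 libraries. The 7 red cell markers summed to 359.7 to 422.8 CPM in N4 cells, 6510.3 to 8125.9 CPM in T4 cells and 3447.2 to 9232.1 CPM in naive cells. The 8 dendritic cell markers summed to 54.9 to 62.6 CPM in N4, 423.9 to 445 CPM in T4 and 1171.5 to 1531.9 CPM in naive cells, and the 6 natural killer cell markers to 46.8 to 53.2, 80.5 to 81.1 and 132.8 to 232.7 CPM in the same order. Both sums were lowest in N4, with the B cell genes Pax5, Blk and Fcer2a, the dendritic cell gene Siglech and the red cell gene Alas2 at 0 there. The part of these other cells in the results below was not tested, and in bulk RNA fewer cells of a type and less RNA per cell cannot be told apart.

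Setting N4 against naive cells addresses how the snRNP protein genes stand after strong stimulation. Of the 14 ring genes 5 rose in N4 cells, each about 3-fold or more, and others such as Lsm2 and Lsm4 did not pass the test, while no message of an SF3B or U5 protein passed the test, with log2 fold changes of -0.67 to 0.57. Of the 38 members, 6 rose and 0 fell by edgeR's quasi-likelihood test with Benjamini-Hochberg adjustment at 0.05, where 4.87% of all genes tested rose and 7.18% fell. The 6 were Lsm5, Snrpd1, Lsm8, Snrpe, Lsm3 and Snrpb2, so that 5 of them encode ring subunits. At an unadjusted p under 0.05, 15 members were higher and 0 lower, beside 13.5% and 17.3% of all genes. Of all 38, 31 had a fold change above 0, with a median log2 fold change of 0.56 beside -0.09 over all genes. Both N4 libraries lay above both naive libraries for 22 members and below them for 2, beside 26.5% and 28.9% of all genes. Leaving out any 1 of the 4 N4 and T4 libraries left 0 members past the threshold, as did fitting N4 and naive libraries alone. In those 4 smaller fits 0.708% to 1.53% of all genes rose, and the fold changes stayed similar, with a ring median of 1.34 to 1.78 and Lsm5 at 1.91 to 2.43. Leaving out naive library 2, the one with the high neutrophil markers, gave 16 calls, 15 higher and 1 lower, beside 8.36% and 9.04% of all genes, and a ring median of 2.27. Leaving out naive library 1 gave 7 calls, all higher, beside 3.34% of all genes, and a ring median of 0.96.

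**Figure D1:**
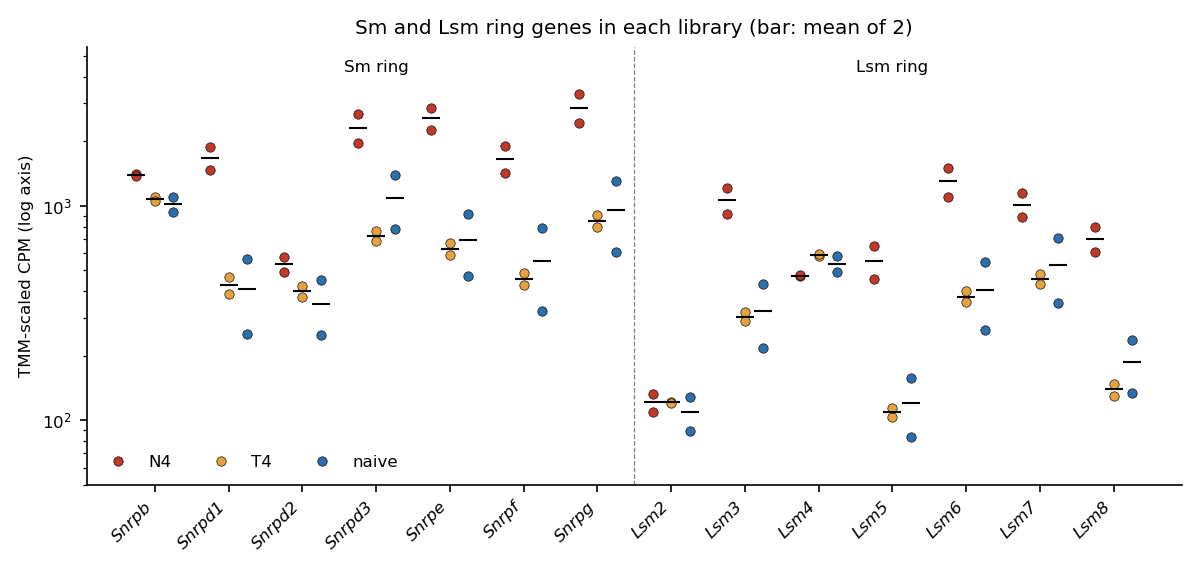
TMM-scaled CPM on a log axis for the 7 Sm ring and 7 Lsm ring genes. Each point is a library of N4, T4 or naive cells and each bar the mean of 2 libraries. Snrpe stood at 2262 and 2859 CPM in N4, above all T4 and naive libraries, while Lsm4 stood at 469.1 and 475.1 CPM in N4, just below them.

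Among the Sm ring genes, Snrpe encodes the SmE subunit of the ring. Its message had 2262 and 2859 CPM in N4 libraries, against 469.8 and 911.6 CPM in naive libraries. The groups did not overlap, and the log2 fold change was 1.89 ± 0.39 (SE), with an edgeR adjusted p of 0.0332. Snrpd1, which encodes SmD1, had 1471 and 1881 CPM in N4, against 253.5 and 562.9 CPM in naive libraries, and rose by 2.04 ± 0.43 on the log2 scale (edgeR adjusted p = 0.0365). Both naive libraries were well below both N4 libraries, although relative to their mean they differed from each other more than the N4 libraries did. The smallest difference of the ring was that of Snrpb, which encodes SmB. It had 1413 and 1381 CPM in N4, against 936.3 and 1093 CPM in naive libraries, a log2 fold change of 0.46 ± 0.24 (edgeR adjusted p = 0.252). This value turns to -0.06 when libraries are scaled by their totals alone. The remaining Sm genes (Snrpf, Snrpg, Snrpd3 and Snrpd2) had log2 fold changes of 0.61 to 1.58, did not overlap between the groups and did not pass the test.

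Coordinates are those of the GRCm38 annotation, an earlier build than the mm39 that the submitters' processing notes list. Snrpe (ENSMUSG00000090553.9) spans chr1:133603871-133610291 on the minus strand and Snrpd3 (ENSMUSG00000020180.11) chr10:75517551-75537381 on the plus strand. Lsm5 (ENSMUSG00000091625.9) spans chr6:56701063-56704710 on the minus strand, and Lsm8 (ENSMUSG00000044155.12) spans chr6:18848579-18855751 and Lsm3 (ENSMUSG00000034192.6) chr6:91515928-91522625, both on the plus strand. Snrpb2 (ENSMUSG00000008333.13) spans chr2:143063039-143072853 on the plus strand. The 38 genes lie on 12 chromosomes.

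The Lsm ring showed the widest spread among its own subunits. Lsm5 had 456 and 652 CPM in N4, against 83.7 and 157.6 CPM in naive libraries, a rise of 2.20 ± 0.39 on the log2 scale (edgeR adjusted p = 0.0232), the largest of all 38 members. Lsm8, the subunit that marks the nuclear ring on U6 RNA, had 606.9 and 796 CPM in N4, against 134.3 and 237.2 CPM in naive libraries, and rose by 1.92 ± 0.35 (edgeR adjusted p = 0.0261). Its place is taken by Lsm1 in the cytoplasmic ring, which acts in mRNA decay. Lsm3 had 914.9 and 1213 CPM in N4, against 216 and 431.3 CPM in naive libraries, and rose by 1.72 ± 0.39 (edgeR adjusted p = 0.0435). Lsm6, with a log2 fold change of 1.68 ± 0.41, had an adjusted p of 0.05005 by the same edgeR test, just outside the threshold. At the other end stood Lsm4, whose message had 469.1 and 475.1 CPM in N4, against 489 and 584.9 CPM in naive libraries. Its N4 libraries lay below both naive ones, with a log2 fold change of -0.19 ± 0.24 (edgeR adjusted p = 0.639). Lsm2 and Lsm7 lay between these, at 0.15 and 0.93.

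Outside the rings, 1 of 24 members passed the test, close to the 4.87% of all genes that rose. Snrpb2 encodes the B″ protein of U2, which binds a stem-loop of U2 RNA together with the A′ protein. It had 372.8 and 512.6 CPM in N4, against 107.7 and 187.6 CPM in naive libraries, and rose by 1.58 ± 0.36 on the log2 scale (edgeR adjusted p = 0.0426). The message of this partner, Snrpa1, had 211.7 and 223.7 CPM in N4, against 117.7 and 142.4 CPM in naive libraries. The groups did not overlap, but the log2 fold change of 0.74 ± 0.23 did not pass the test (edgeR adjusted p = 0.0924).

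The 3 U1 proteins went different ways. Snrpc, whose C protein helps U1 hold the splice site, had 423 and 527.7 CPM in N4, against 133.3 and 253.3 CPM in naive libraries, a log2 fold change of 1.3 ± 0.36 (edgeR adjusted p = 0.0712). Snrpa, which encodes the A protein of U1, had 39.6 and 22.6 CPM in N4, against 66.5 and 36.7 CPM in naive libraries, with overlapping groups and a log2 fold change of -0.73 ± 0.40 (edgeR adjusted p = 0.268). Snrnp70, which encodes the U1-70K protein, lay between them at 0.47. The difference between these 3 genes was not tested.

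Subunits of the branch point complexes were spread in the same manner. In SF3A, Sf3a1 had 21.5 and 14 CPM in N4, against 10.9 and 4.43 CPM in naive libraries, while Sf3a2 had 14.3 and 6.7 CPM in N4, against 31.4 and 10.9 CPM in naive libraries. Their log2 fold changes were 1.21 ± 0.48 and -1.01 ± 0.59, neither past the test (edgeR adjusted p = 0.156 and 0.292). In SF3B, whose largest subunit Sf3b1 grips the branch point helix, the 5 genes had log2 fold changes of -0.67 (Sf3b4) to 0.18 (Sf3b2), and every one overlapped between the groups. Sf3b1 itself had 71.9 and 68.5 CPM in N4, against 85.2 and 42.4 CPM in naive libraries. U2af1, the small U2AF subunit that reads the end of the intron, had 541.8 and 643.1 CPM in N4, against 243.9 and 383.1 CPM in naive libraries, a log2 fold change of 0.92 ± 0.30 (edgeR adjusted p = 0.1). Its large partner U2af2, which binds the pyrimidine tract, had 31.5 and 21.1 CPM in N4, against 39.1 and 16.9 CPM in naive libraries, with the N4 libraries lying between the naive ones.

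In the tri-snRNP, no member passed the test. Prpf31, which holds U4 RNA and is needed to join U4/U6 with U5, had 37.2 and 29.4 CPM in N4, against 20 and 18.7 CPM in naive libraries, a log2 fold change of 0.78 ± 0.24 (edgeR adjusted p = 0.0848). Prpf4 had the smallest fold change of the U4/U6 proteins, 0.31 on the log2 scale, with 9.91 and 10.6 CPM in N4, against 9.11 and 7.42 CPM in naive libraries. Among U5 proteins, Prpf8, the scaffold of the catalytic centre, had 17.2 and 16.9 CPM in N4, against 13.1 and 9.8 CPM in naive libraries. Prpf6, a bridge between U5 and U4/U6, had 6.78 and 7.51 CPM in N4, against 12.5 and 7.79 CPM in naive libraries. Both N4 libraries lay below both naive ones for Prpf6, with a log2 fold change of -0.51 ± 0.32 (edgeR adjusted p = 0.324). The helicase gene Snrnp200, the GTPase gene Eftud2 and the WD-repeat protein gene Snrnp40 lay at 0.55, 0.46 and -0.03. Prpf19, a ubiquitin ligase that names the complex joining at activation, had 34.7 and 21.2 CPM in N4, against 32.8 and 18.6 CPM in naive libraries, a log2 fold change of 0.12 ± 0.38.

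**Figure D2:**
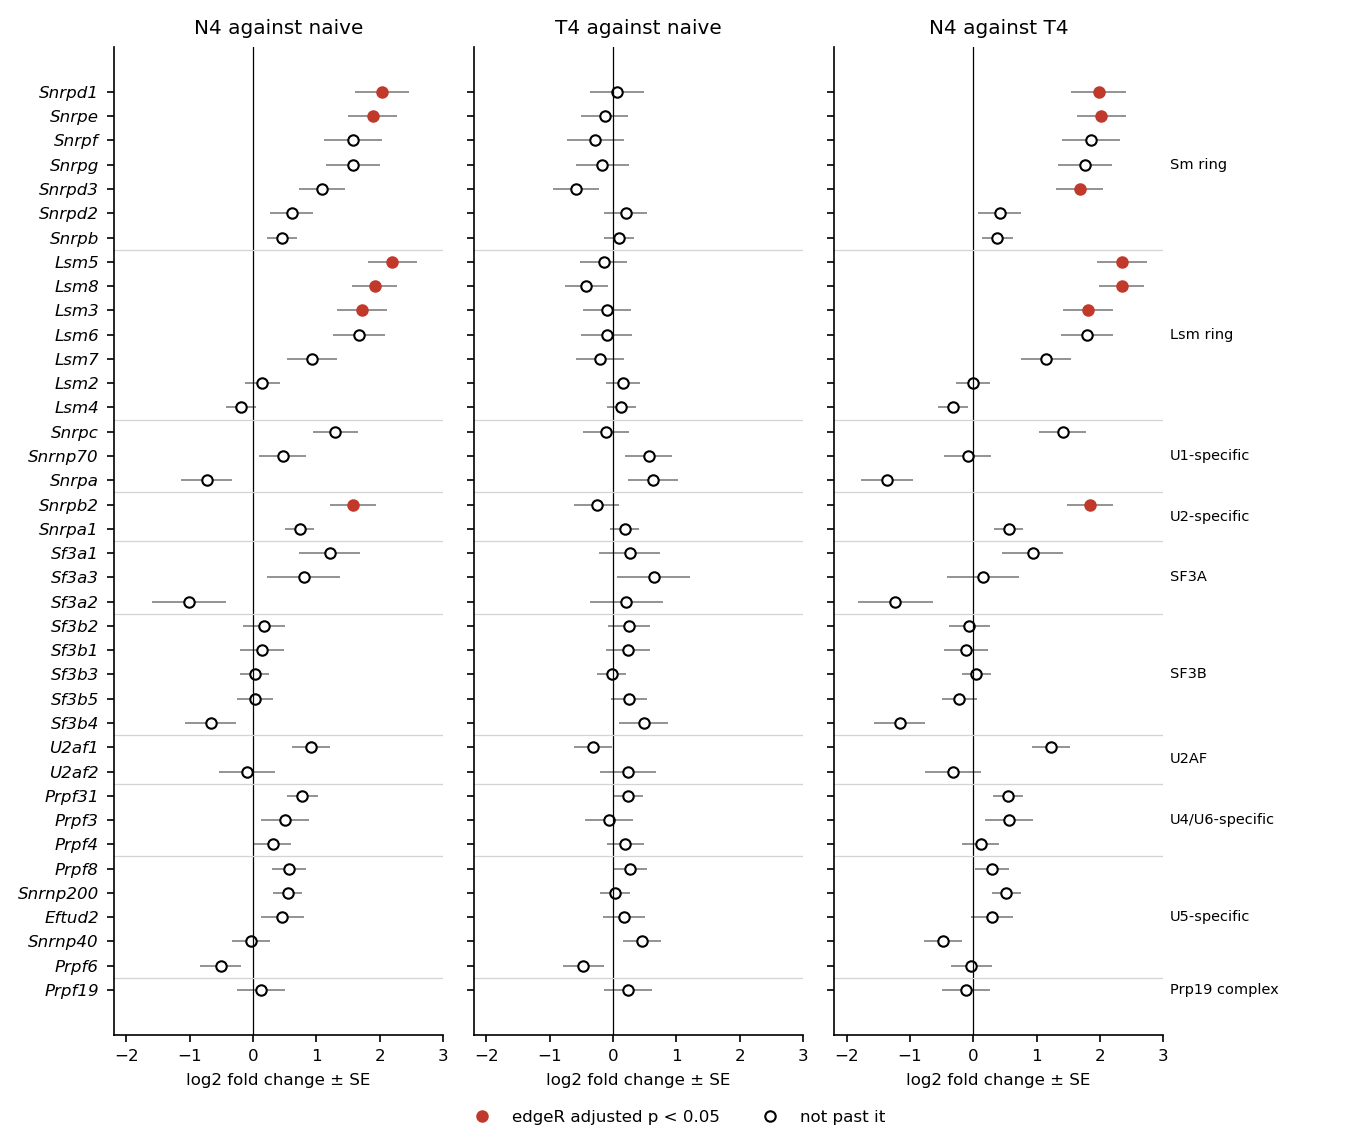
Log2 fold changes with standard errors for all 38 members, grouped by role, in N4 against naive, T4 against naive and N4 against T4. Filled points passed edgeR's test at an adjusted p of 0.05 (6, 0 and 7 members). The ring genes extend to 2.20 and 2.35 in the comparisons of N4, while in T4 against naive all members lie between -0.59 and 0.64.

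Setting T4 against naive cells addresses the same question after the weaker peptide. No member passed the test, and the ring genes had log2 fold changes of -0.59 (Snrpd3) to 0.20 (Snrpd2). By edgeR's quasi-likelihood test 0 of 38 members passed, with 0 at an unadjusted p under 0.05, beside 7.18% higher and 7.29% lower of all genes. DESeq2 called 0 members, beside 850 higher and 1147 lower of all 23003 genes. Few genes of any kind passed here: 0.0826% of all genes tested rose and 0.0348% fell. The median log2 fold change of the members was 0.15 beside 0.00 over all genes, and 23 of 38 lay above 0. Snrpe had 591.5 and 668.1 CPM in T4, against 469.8 and 911.6 CPM in naive libraries, and Lsm5 had 103.7 and 114.3 CPM in T4, against 83.7 and 157.6 CPM in naive libraries. For both genes the T4 libraries lay between the naive libraries, but above both of them with scaling by library totals alone. T4 and naive libraries overlapped for 13 of the 14 ring genes and for 33 of all 38 members, with 4 higher and 1 lower, beside 26.2% and 22.6% of all genes.

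The extremes in T4 against naive were small. Sf3a3, a subunit of SF3A, had 24.9 and 19.1 CPM in T4, against 21.9 and 6.27 CPM in naive libraries, a log2 fold change of 0.64 ± 0.58 (edgeR adjusted p = 0.698). Snrpd3, which encodes SmD3, had 686.5 and 760.2 CPM in T4, against 775.7 and 1398 CPM in naive libraries, the only member whose T4 libraries both lay below both naive ones, with a log2 fold change of -0.59 ± 0.36 (edgeR adjusted p = 0.536). The ring genes had a median of -0.12 and the other 24 members one of 0.23. The sign of the ring median rests on single naive libraries and on the scaling. It was -0.62 without naive library 1, 0.43 without naive library 2, and 0.29 with scaling by library totals alone, where the median of all genes moved to 0.30.

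The comparison of N4 with T4 sets the stronger peptide against the weaker at the same day. Of the 14 ring genes 6 rose in N4 cells, by up to 5.08-fold for Lsm5, while Snrpb, Snrpd2, Lsm2 and Lsm4 had log2 fold changes of -0.32 to 0.42 and did not pass the test. By edgeR's quasi-likelihood test 7 of 38 members rose and 0 fell, where 3.48% of all genes tested rose and 4.47% fell. The 7 were Lsm5, Lsm8, Snrpe, Snrpd1, Snrpb2, Lsm3 and Snrpd3. This comparison shares its N4 libraries with the one against naive cells. At an unadjusted p under 0.05, 13 members were higher and 2 lower, beside 13.4% and 15.8% of all genes, the lower ones being Snrpa and Sf3b4. The members had a median log2 fold change of 0.40 beside -0.20 over all genes, and 25 of 38 lay above 0. N4 libraries lay above both T4 libraries for 22 members and below both for 6, beside 27.6% and 37.6% of all genes. Leaving out any 1 of the 4 N4 and T4 libraries left 0 calls. In those smaller fits at most 0.245% of all genes rose, and 0 without N4 library 2 or T4 library 2, so they say little about single members. The ring median there was 1.52 to 1.98. Leaving out either naive library gave 15 calls, beside 8.84% and 8.97% of all genes higher, as did fitting N4 and T4 alone, each with 13 members higher and 2 lower.

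Lsm8 had 606.9 and 796 CPM in N4, against 130 and 148 CPM in T4 libraries, and rose by 2.34 ± 0.36 on the log2 scale (edgeR adjusted p = 0.0265). Lsm5 had 456 and 652 CPM in N4, against 103.7 and 114.3 CPM in T4, and rose by 2.35 ± 0.39 (edgeR adjusted p = 0.0303). For both genes each N4 library was far above each T4 library.
Snrpe had 2262 and 2859 CPM in N4, against 591.5 and 668.1 CPM in T4, and rose by 2.02 ± 0.39 (edgeR adjusted p = 0.0380). Snrpd1 had 1471 and 1881 CPM in N4, against 386.4 and 463.8 CPM in T4, and rose by 1.98 ± 0.43 (edgeR adjusted p = 0.0481). Snrpd3 had 1954 and 2679 CPM in N4, against 686.5 and 760.2 CPM in T4. The groups were far apart, and its log2 fold change of 1.68 ± 0.37 had an adjusted p of 0.04987 by the same edgeR test, at the edge of the threshold. Snrpb2 and Lsm3 rose by 1.84 and 1.81. Lsm6, Snrpg, Snrpf and the U2AF gene U2af1 had log2 fold changes of 1.79, 1.76, 1.86 and 1.23 and edgeR adjusted p-values of 0.0526 to 0.0606, just outside it.

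Some subunits of the same particles were lower in N4 than in T4. Snrpa had 39.6 and 22.6 CPM in N4, against 84.7 and 74.6 CPM in T4, without overlap and with a log2 fold change of -1.36 ± 0.41 (edgeR adjusted p = 0.0888). Sf3b4, an RNA-binding subunit of SF3B, had 45.2 and 32 CPM in N4, against 86.1 and 86.3 CPM in T4, with a log2 fold change of -1.16 ± 0.40 (edgeR adjusted p = 0.120). Sf3a2 had 14.3 and 6.7 CPM in N4, against 28 and 21.1 CPM in T4, with a log2 fold change of -1.23 ± 0.59. Lsm4 had 469.1 and 475.1 CPM in N4, against 580.3 and 597.8 CPM in T4, with a log2 fold change of -0.32 ± 0.24. Of these 4, none passed the edgeR test. DESeq2 called Snrpa and Sf3b4 lower, with log2 fold changes of -1.33 and -1.14, where it called 2999 of all 23003 genes lower.
The other extremes of their groups were small: Sf3b3 lay at 0.05, Snrnp200 at 0.52, Snrnp40 at -0.48, Prpf3 at 0.56, Prpf4 at 0.12, U2af2 at -0.32 and Prpf19 at -0.12 on the log2 scale. Sf3a1 lay at 0.94 and Snrpc at 1.41, neither past the test.

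Set side by side, the 14 ring genes had a median log2 fold change of 1.58 in N4 against naive, -0.12 in T4 against naive and 1.77 in N4 against T4. The other 24 members had 0.39, 0.23 and 0.09. The ring genes Snrpb, Snrpd2, Lsm2 and Lsm4 stayed between -0.32 and 0.61 in every comparison. Scaling by library totals alone shifted the all-gene median, which became -0.65 for N4 against naive and -1.05 for N4 against T4. The ring medians were then 1.14 and 0.89, and those of the other members -0.23 and -0.78, so the direction of the members outside the rings is relative to the scaling used. With that scaling 9 members were called higher in N4 against T4 and 3 lower, beside 320 and 1736 of all 23003 genes. The lower ones were Lsm2, Lsm4 and Sf3b5.

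The share of a library's counts that falls on the 38 genes is relative to the library total alone, without the TMM factor. It was 1.5% and 1.48% in N4 cells, 1.08% and 1.10% in T4 cells and 0.869% and 0.907% in naive cells. The 3 groups did not overlap, and the difference between any groups exceeded the spread within them. In TMM-scaled CPM the members summed to 18300 and 23100 in N4 cells, above all other libraries. T4 cells then had 7930 and 8540 CPM and naive cells 6650 and 10900 CPM, which overlapped. The order of T4 and naive cells thus depends on the scaling. No p is given, since an exact two-sided permutation of 2 libraries against 2 reaches 0.33 at the lowest. Leaving the marker genes of other cells out of the totals gave means of 1.49% for N4, 1.10% for T4 and 0.909% for naive cells, in the same order. Only the listed genes were left out and other messages of those cells stayed in, so the part of those cells was not tested. The rings held most of the member counts, with 87.4% and 88.7% in N4 cells, 80.4% and 81.1% in T4 cells and 78.8% and 85.4% in naive cells. The SF3B share was 2.19% and 1.84% in N4 cells, 6.22% and 6.08% in T4 cells and 6.46% and 3.77% in naive cells, lowest in N4.

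**Figure D3:**
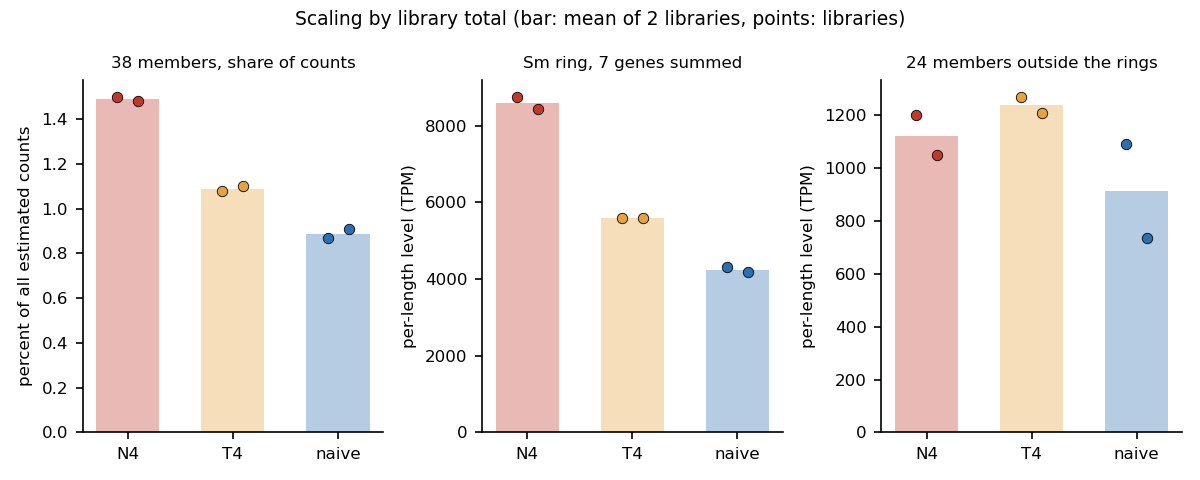
Percent of all estimated counts on the 38 members, summed per-length level of the 7 Sm ring genes and summed per-length level of the 24 members outside the rings, in N4, T4 and naive cells. Bars are means of 2 libraries and points are libraries. The Sm ring sum was 8750 and 8430 TPM in N4, above T4 and naive, while the sum outside the rings was highest in T4.

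To compare levels between genes, transcript counts were divided by annotated length and scaled to the same sum in each library (TPM), with no TMM factor. On this per-length level the Sm ring genes summed to 8750 and 8430 TPM in N4 cells, 5580 and 5580 TPM in T4 cells and 4300 and 4190 TPM in naive cells. The 24 members outside the rings summed to 1200 and 1050 TPM in N4 cells, 1270 and 1210 TPM in T4 cells and 1090 and 736 TPM in naive cells. On this level the Sm ring thus differed between all 3 groups beyond the spread of the libraries. The N4 and naive values of the other members differed by less than the gap between the naive libraries. In TMM-scaled CPM the Sm ring genes summed to 4360 and 4750 in T4 cells, between the naive libraries at 3610 and 6510. The difference of the Sm ring between T4 and naive cells thus depends on the scaling.

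Although the finished Sm ring holds 1 copy of each subunit, the messages were unequal. In N4 libraries Snrpe had the highest per-length level, at 3059.6 and 2896.6 TPM, and Snrpd2 the lowest, at 237.7 and 211.4 TPM. Between them came Snrpg at a mean of 1701.6, Snrpd1 at 1235.1, Snrpf at 1142, Snrpb at 729.6 and Snrpd3 at 578.2 TPM. Snrpd1 and Snrpf were close neighbours in this order, with Snrpd1 higher in both libraries. The ratio of the highest to the lowest subunit was 12.9 and 13.7 in N4 cells, 4.38 and 4.51 in T4 cells and 5.29 and 5.69 in naive cells. The ring messages were thus least even in N4, also with each gene's longest transcript as its length, where the means were 10.2 for N4, 4.10 for T4 and 4.46 for naive cells. Snrpb stood higher in the order outside N4. In T4 it came next after Snrpe, at a mean of 1123.8 TPM, and in naive cells it matched Snrpg within the spread of the libraries, at 796.8 beside 799.2 TPM. For the Lsm ring the ratio was 13.3 and 15 in N4 cells, 5.97 and 6.72 in T4 cells and 6.63 and 9.13 in naive cells, but with longest transcripts the order of the groups changed (means of 11.7, 15.2 and 10.9), so no order is read from it.

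Outside the rings, U2af1 and Snrpc had the highest per-length levels in N4, with means of 348.2 and 361.7 TPM, followed by Snrpb2 at 132.7 and Snrpa1 at 107.8 TPM. The lowest means in N4 were those of 3 tri-snRNP genes, at 1.19 (Prpf4), 1.40 (Prpf8) and 1.51 (Snrnp200) TPM. The order of levels among the members thus ran from a Sm ring gene at the top to tri-snRNP genes at the bottom.

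**Figure D4:**
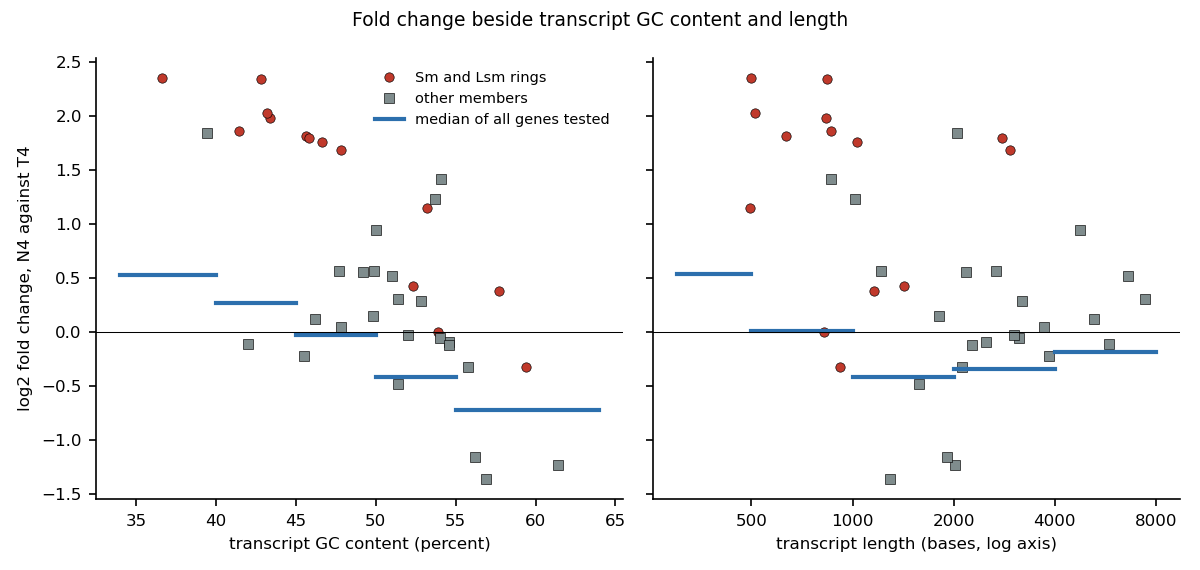
Log2 fold change in N4 against T4 beside the GC content (percent) and the length (bases, log axis) of each member's transcripts. Circles are ring genes, squares the other members and horizontal bars the medians of all genes tested in each range. The members that rose lie at 36.6% to 47.8% GC, and the median of all genes falls from 0.53 below 40% GC to -0.72 above 55%.

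The members' fold changes varied with the base composition of their transcripts. The 7 members that rose had transcripts of 36.6% to 47.8% GC, while 0 of the 20 members above 50% GC passed the test in either comparison of N4. Ring genes up to 50% GC (9 genes) had a median log2 fold change of 1.72 in N4 against naive and 1.86 in N4 against T4, and those above 50% (5 genes) had 0.46 and 0.38. Across the 38 members, Spearman's rho between GC content and log2 fold change was -0.65 in N4 against naive, 0.40 in T4 against naive and -0.67 in N4 against T4. Across all 22732 genes with a GC value it was -0.16, 0.09 and -0.24. Genes are not independent replicates, the comparisons share libraries, and these values are descriptions. Over all genes, the median log2 fold change in N4 against T4 was 0.53 up to 40% GC and -0.72 above 55% GC, where members had 2.09 and -0.74.

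Correction of the counts for GC content within each library left the same 6 calls in N4 against naive, with Lsm5 at 1.77, Snrpd1 at 1.71 and Lsm8 at 1.57. In N4 against T4 it left 2 of 7, Lsm8 at 1.82 and Lsm5 at 1.57. Snrpe, Snrpd3, Snrpd1, Lsm3 and Snrpb2 then lay at 1.53, 1.53, 1.5, 1.48 and 1.18, with edgeR adjusted p-values of 0.0552 to 0.0699, and the ring median was 1.47. Length showed a weaker relation, with a rho over the members of -0.42 in N4 against naive and -0.42 in N4 against T4, beside -0.07 and -0.12 over all genes. Correction for transcript length left every call in place and raised the counts to 11 and 12. Of all 22732 genes it called 1560 and 1271 higher, beside 1120 and 801 of 23003 without it.

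The naive libraries differed from each other along the same division of the members. All 14 ring genes were higher in naive library 2 than in naive library 1, with a median ratio of 1.91, and 18 of the other 24 members were lower, with a median ratio of 0.607. With scaling by library totals the median ratios were 1.22 and 0.386. The same ratio of library 2 to library 1 was 1.3 for the ring genes and 0.905 for the others in N4, and 1.12 and 0.947 in T4. Differences between ring genes and the other members thus occurred between libraries of 1 group as well as between groups, and naive library 2 is the one with the high neutrophil markers.

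The stretches upstream of the rising members are shown to let their sequences be compared. RefSeq's promoter table (GRCm38.p6) held 30 of the 38 members, and the 250 bases before each start were searched on both strands for 5 motifs. The stretches printed belong to 4 of the members that rose, read 5′ to 3′ on the gene's strand, and end where the GENCODE gene model begins. Capitals mark matches to CCGGAAG (the core bound by ETS factors), GGGCGG (the GC box bound by Sp factors) or CCAAT, on either strand. The Lsm5 stretch lies at chr6:56704711-56704949 on the minus strand, that of Lsm8 at chr6:18848385-18848578 on the plus strand, that of Lsm3 at chr6:91515785-91515927 on the plus strand and that of Snrpe at chr1:133610292-133610530 on the minus strand.
Lsm5: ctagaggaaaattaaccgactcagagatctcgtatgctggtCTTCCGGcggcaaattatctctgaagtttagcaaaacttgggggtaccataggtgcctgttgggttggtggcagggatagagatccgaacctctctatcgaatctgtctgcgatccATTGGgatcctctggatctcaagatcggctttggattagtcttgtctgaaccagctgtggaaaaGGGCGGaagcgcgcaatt
Lsm8: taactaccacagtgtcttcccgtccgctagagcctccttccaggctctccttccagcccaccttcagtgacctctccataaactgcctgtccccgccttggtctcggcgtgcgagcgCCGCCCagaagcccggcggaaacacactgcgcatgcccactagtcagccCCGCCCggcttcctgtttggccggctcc
Lsm3: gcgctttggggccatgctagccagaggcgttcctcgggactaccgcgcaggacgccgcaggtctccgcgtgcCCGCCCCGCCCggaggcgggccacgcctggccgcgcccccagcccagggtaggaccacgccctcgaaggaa
Snrpe: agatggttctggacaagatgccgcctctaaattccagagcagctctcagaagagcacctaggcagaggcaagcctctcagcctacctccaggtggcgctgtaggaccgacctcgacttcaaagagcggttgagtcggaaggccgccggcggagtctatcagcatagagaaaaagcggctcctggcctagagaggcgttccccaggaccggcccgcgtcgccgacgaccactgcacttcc

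The Lsm5 stretch held 1 match to the ETS core, 1 GC box and 1 CCAAT box. Those of Lsm8 and Lsm3 held 2 GC boxes each, overlapping in Lsm3, and that of Snrpe held none of the motifs. Over the full 250 bases the ETS core was found for 12 of 30 members (40%) and for 7.83% of 27025 genes in the table. The GC box was found for 17 of 30 members (56.7%), beside 35.4% of all genes, and for 5 of the 6 rising members with an entry. CCAAT was found for 11 members (36.7%) beside 37.5%, CACGTG for 2 (6.67%) beside 6.86% and TATAAA for 2 (6.67%) beside 14.3%. The members' stretches had a median of 19 CpG dinucleotides against 6 for all. The part of base composition in these shares was not tested. A match is a run of letters and not a site in use, and of the 12 members with the ETS core Lsm5 and Snrpb2 rose.

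Splicing of the members' own messages was read from the transcript table. By edgeR's transcript usage test, 0 of 34 members with more than 1 transcript kept passed in any comparison, where 0.808% of 10394 genes passed in N4 against naive, 0.26% in T4 against naive and 1.04% in N4 against T4. At an unadjusted gene p under 0.05 there were 5, 2 and 1 members, beside 11.5%, 8.4% and 11.2% of all genes. The nearest to the threshold was Lsm2, with an adjusted p of 0.0705 in N4 against naive and 0.0701 in T4 against naive by the same edgeR test, through 1 of its coding transcripts. The result changed in both of these comparisons when naive library 1 was left out, a fit with 1 naive library. No usage change was therefore called with all 6 libraries, and the shares below are descriptions of genes chosen after their values were seen.

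**Figure D5:**
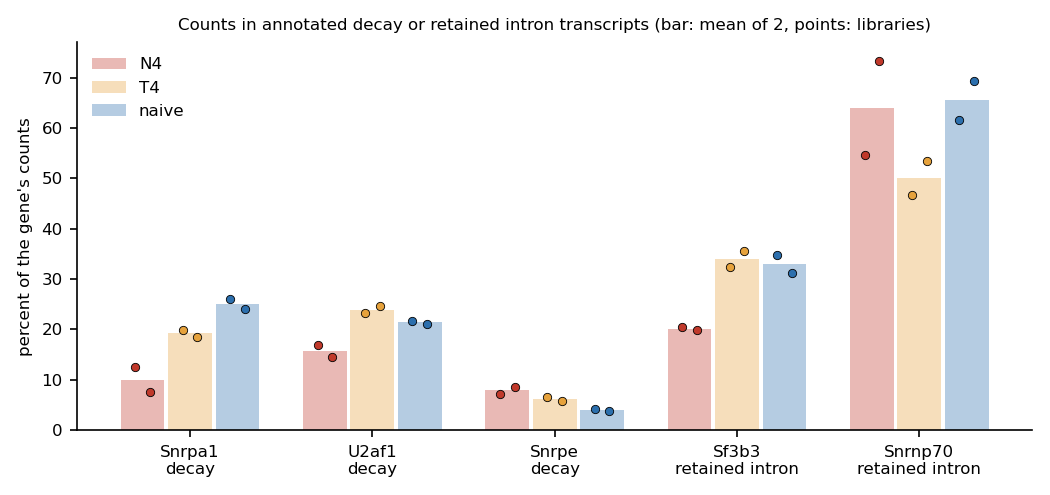
Percent of a gene's counts in transcripts that the annotation marks for nonsense-mediated decay (Snrpa1, U2af1, Snrpe) or as retaining an intron (Sf3b3, Snrnp70), in N4, T4 and naive cells. Bars are means of 2 libraries and points are libraries. The decay share of Snrpa1 was 12.5% and 7.50% in N4, below T4 and naive libraries, and that of Snrpe 7.20% and 8.60% in N4, above them.

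Nonsense-mediated decay removes messages with a premature stop, and several splicing genes make such messages. For Snrpa1, the transcript Snrpa1-201, annotated as a decay target, held 12.5% and 7.50% of the gene's counts in N4 cells, 19.9% and 18.5% in T4 cells and 26.1% and 24.1% in naive cells. The 3 groups did not overlap. In CPM the decay transcript had 26.5 and 16.8 in N4 cells, 27.6 and 28.9 in T4 cells and 30.8 and 34.3 in naive cells, while the coding transcript had 181.8 and 200.4 CPM in N4 cells, 107.3 and 121 CPM in T4 cells and 79.9 and 105.9 CPM in naive cells. For U2af1 the decay share was 16.8% and 14.5% in N4 cells, 23.2% and 24.7% in T4 cells and 21.7% and 21.0% in naive cells, lowest in N4. Snrpe went the other way, with 7.20% and 8.60% in N4 cells, 6.60% and 5.70% in T4 cells and 4.20% and 3.8% in naive cells.

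Intron-retaining transcripts of Sf3b3 held 20.4% and 19.8% of its counts in N4 cells, 32.3% and 35.6% in T4 cells and 34.8% and 31.2% in naive cells. Both N4 libraries were lower than all others. Those of Snrnp70 held 54.7% and 73.3% in N4 cells, 46.7% and 53.5% in T4 cells and 61.5% and 69.4% in naive cells, and those of Prpf31 held 37.7% and 68.9% in N4 cells, 23.4% and 28.0% in T4 cells and 19.6% and 52.6% in naive cells. For Prpf31 the libraries of N4 and of naive cells differed by as much as the groups. The N4 libraries did so for Snrnp70 too, while both of its T4 libraries lay below both naive ones. The exact 95% Clopper-Pearson interval of each of these shares was at most 2.96 percentage points wide, and it covers counting error only.

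Other genes of the pathway put the members in context. Of 16 further proteins associated with U1 and U2, 0 passed in N4 against naive (4 higher at an unadjusted p under 0.05, beside 13.5% of all genes) and 1 in N4 against T4, where Sf3b6, the SF3B subunit beside the branch point, rose by 1.79 ± 0.36 on the log2 scale (edgeR adjusted p = 0.041). It had 1095 and 1477 CPM in N4, against 353.3 and 392.9 CPM in T4 libraries. Of 14 associated with the tri-snRNP, 1 rose in each comparison of N4, beside 4.87% of all genes against naive and 3.48% against T4. This was Ppih, a cyclophilin of the U4/U6 particle. Ppih had 546.1 and 684.9 CPM in N4, against 134.3 and 156.5 CPM in T4 and 91.8 and 188.3 CPM in naive libraries. Its log2 fold change was 2.14 ± 0.40 against naive and 2.08 ± 0.40 against T4 (edgeR adjusted p = 0.026 and 0.038). Both genes encode small proteins, as do the rising ring genes, but so do Lsm2, Lsm4 and Snrpd2, which did not pass. The part of protein size was not tested. Of 4 DEAH-box helicases, Dhx15, which takes spent spliceosomes apart, rose in N4 against naive by 1.08 ± 0.22 (edgeR adjusted p = 0.033), with 41.5 and 46.6 CPM in N4, against 21 and 20.6 CPM in naive libraries.

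The minor spliceosome removes a rare class of introns. Of 9 of its proteins, 2 fell in N4 against naive and 1 in N4 against T4, beside 7.18% and 4.47% of all genes. Scnm1 had 18.5 and 16.7 CPM in N4, against 40.6 and 39.8 CPM in T4 and 32 and 35.9 CPM in naive libraries, with log2 fold changes of -1.19 ± 0.22 against T4 and -0.95 ± 0.22 against naive (edgeR adjusted p = 0.035 and 0.045). Zmat5, a protein of the U11/U12 particle, had 61.3 and 68.8 CPM in N4, against 130.5 and 120.3 CPM in naive libraries, with a log2 fold change of -0.95 ± 0.22 (edgeR adjusted p = 0.044). Of 16 genes of the Prp19 complex and its relatives, 13 of the SMN complex and Sm methylation, which load the Sm ring onto snRNA, and 7 other Lsm proteins, 0 passed edgeR's test in any comparison. At an unadjusted p under 0.05 in N4 against naive there were 4, 3 and 4 genes of these lists, beside 30.8% of all genes in either direction, and the median log2 fold changes were 0.06, -0.03 and 0.67. In T4 against naive, none of the 79 spliceosome genes of these lists passed, and 1 had an unadjusted p under 0.05, beside 14.5% of all genes.

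Cell cycle genes showed how proliferation stood in the same libraries. Of 22, 20 rose in N4 against naive (median log2 fold change 2.40), 0 passed in T4 against naive (median 1.28, with 19 at an unadjusted p under 0.05, beside 7.18% of all genes higher) and 6 rose in N4 against T4 (median 0.94). Mki67, a marker of dividing cells, had 32.4 and 35 CPM in N4 cells, 14.1 and 11.9 CPM in T4 cells and 4.37 and 4.62 CPM in naive cells. In TMM-scaled CPM, its levels in T4 lay between those of N4 and naive cells, whereas the T4 levels of Snrpe and Lsm5 lay within the naive range. With scaling by library totals alone, Snrpe had 804 and 857 CPM in T4, against 614 and 760 CPM in naive libraries. Lsm5 then had 141 and 147 CPM in T4, against 109 and 131 CPM in naive libraries. Their T4 libraries then lay above both naive ones, so the contrast with Mki67 depends on the scaling.

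Counts of some members share sequence with other genes. The exons of 11 members overlap another gene, in 6 cases a protein-coding one (Snrpa, Snrpa1, Snrpd3, Snrpf, Sf3a2 and Sf3b3), and the kit named does not mark strand. Near-identical copies, mostly processed pseudogenes, exist for 14 members, with counts of up to 22.5% of the member's own (Snrpg), 22.35% for Lsm7 and 16.14% for Lsm5. How many counts of these genes were assigned to the wrong gene was not measured, so their values are less certain by an unknown amount.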

How the data were processed

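The authors deposited estimated counts per gene and per transcript, not normalized and as whole numbers, for 6 libraries, and no rounding was needed. Per the labels' protocols, the RNA came from a miRNeasy Micro extraction and the libraries from a SMARTer ultra-low poly(A) kit. Without saying what each did, the submitters' processing notes list mm39 as build, and DESeq2 1.30.1, R 4.0.5, STAR 2.7.1a, StringTie 2.1.0 and SAMtools 1.9. Not given in the sources used here are the annotation release, the strand setting and the read length, and library totals are therefore no numbers of reads. Symbols, lengths, GC content, transcript classes and coordinates came from GENCODE M21 models on GRCm38, a different build, which held 97.1% of transcripts.

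Genes were tested with edgeR 4.0.16 in R 4.3.3: filterByExpr, TMM scaling and a quasi-likelihood test with 1 mean per group, where all 6 libraries give 1 spread (common biological coefficient of variation 0.669, prior degrees of freedom 3.09 beside 3 residual ones), with Benjamini-Hochberg adjustment over all 23003 genes. A standard error is the log2 fold change over the root of its F statistic. Transcript usage was tested with diffSpliceDGE and Simes p-values per gene. The procedures were checked on simulated counts. Over the 3 comparisons the gene test found 0% to 1.49% of 2-fold changes and 16.4% to 25.4% of 4-fold changes. It found 74.2% to 83.3% of 16-fold changes. A gene that did not pass the test is therefore not shown to be unchanged. The changed genes numbered 67 at 2-fold, 67 at 4-fold and 66 at 16-fold, among 21425 to 21474 genes simulated. Beside these, 15 unchanged genes were called in N4 against naive and 7 in each other comparison. A call close to the threshold can thus be false. Between libraries of the same group, chi-square over its degrees of freedom was 343 (N4), 118 (T4) and 2210 (naive), which exceeds sampling noise, and no library was taken for a duplicate. Alternatives were scaling by library total, no filter, a minimum fold change of 1.5, only the groups compared, leaving out each library, a replicate block, corrections for GC content and length, and DESeq2 1.42.0.

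Full values are given for members past the threshold and for the highest and lowest member of each role, and for up to 3 genes past the threshold of each other list. The members, lists and rules were chosen with earlier results of these data known. Copies were found with BLAST 2.17.0 (at least 95% identity over 200 bases) and promoters are RefSeq's. The summed level of the B cell markers is not reported here.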

Additional observations from a re-analysis of the deposited data

How the results depend on the processing

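Each comparison was refitted under 14 alternatives. In T4 against naive 0 members were called under all 14. In N4 against naive (6 members called) the count was 11 with library size scaling, 2 with a minimum fold change of 1.5, 10 with no filter, 0 with only the groups compared, 6 with GC correction, 11 with transcript length correction, 14 with DESeq2 and 0 to 16 when 1 library was left out. In N4 against T4 (7 called) it was 12 with library size scaling, 2 with a minimum fold change of 1.5, 14 with no filter, 15 with only the groups compared, 2 with GC correction, 12 with transcript length correction, 15 with DESeq2 and 0 to 15 when 1 library was left out. Calls over all genes moved too. In N4 against naive 1120 genes rose in the main fit and 695 with library size scaling. The number was 646 with a minimum fold change of 1.5, 1389 with no filter and 289 with only the groups compared. It was 1027 with GC correction, 1560 with transcript length correction and 2539 with DESeq2. In N4 against T4 it was 801, 320, 243, 1467, 2616, 426, 1271 and 2756 in the same order. Genes that fell numbered 755 to 3647 and 526 to 2999. Same-numbered libraries deviated together only weakly (correlations of 0.0174, 0.0798 and 0.0372), so the numbers were not taken as pairs. With a replicate block the counts were 11 in N4 against naive, 0 in T4 against naive and 15 in N4 against T4. Of all 23003 genes 1642, 62 and 1714 were then higher and 1978, 68 and 1653 lower. Without naive library 1, the result of the transcript usage test for the members changed in N4 against naive and in T4 against naive. Leaving out a library leaves its group with 1, which is then assumed to vary like the others.

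Single genes were followed through the alternatives only where they passed the threshold or stood at an extreme, not for every member. Among these selected genes 33 values changed sign, none of them past the threshold. With library size scaling these were Snrpb at -0.06, Sf3b2 at -0.41, Prpf4 at -0.28, Prpf8 at -0.02 and Prpf19 at -0.47 in N4 against naive, and Snrpa1 at -0.30, Snrpb at -0.48, Snrnp200 at -0.33, Sf3b3 at -0.82, Prpf3 at -0.29 and Prpf4 at -0.75 in N4 against T4. Over all members more signs changed with that scaling. Members with a fold change above 0 went from 31 to 19 in N4 against naive and from 25 to 14 in N4 against T4. In T4 against naive they went from 23 to 35. GC correction moved Lsm4 to 0.26 and U2af2 to 0.31 in N4 against naive, and Lsm4 to 0.33, Sf3b3 to -0.10, U2af2 to 0.13, Prpf4 to -0.16 and Prpf19 to 0.26 in N4 against T4. Length correction moved U2af2 to 0.15 in N4 against naive and Prpf19 to 0.15 in N4 against T4. With no filter, Prpf19 lay at -0.02 in N4 against naive, and Sf3b3 at -0.09 and Prpf4 at -0.03 in N4 against T4. With 1 library left out, values in N4 against naive ran from -0.14 to 0.46 for Sf3b2, from -0.28 to 0.46 for Prpf19 and from -0.58 to 0.51 for U2af2. In N4 against T4 they ran from -0.10 to 0.19 for Sf3b3, from -0.15 to 0.34 for Prpf4 and from -0.52 to 0.19 for Prpf19. The cause of these moves was not tested beyond what each alternative changes. Counting error is small beside the spread between libraries, which limits these comparisons with 2 libraries a group.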
